A study of Mus musculus with 5 samples.

Results

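Kinesins are motor proteins that walk along or take apart microtubules, and the family was followed here through every gene whose symbol is Kif, a number and at most a letter with a further number. Rows of the table were named through their RefSeq transcripts, and 30 of 25631 rows matched, covering 28 genes of 17277 named. The annotation holds 38 genes of this form, and the 10 without a row here were not analysed. Kif1b and Kif5a had 2 rows each, for different transcripts, and the brighter row stood for the gene. Members were sorted by their known role into 9 mitotic kinesins, 10 transport kinesins, 7 ciliary kinesins and 2 others.

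Mitotic kinesins build the spindle, move and align chromosomes and complete cytokinesis, so in a juvenile testis they are made by dividing spermatogonia and somatic cells. Transport kinesins carry vesicles, organelles and RNA towards microtubule plus ends and are best known from axons and dendrites, although several are made in most cells. Ciliary kinesins drive or regulate traffic along the axoneme of cilia and sperm flagella, or control cilium length and disassembly.

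Total RNA of whole mouse testes at postnatal day 9 was hybridised in a single colour to 5 expression arrays, with 3 from Dmrt1 knockouts made with NGN-cre, 1 from a Cre-negative control that carries the NGN-cre label too, and 1 from a Dmrt1 knockout made with DHH-cre. All 5 came from males, and the labels give no allele, strain or number of animals for any of them. Dmrt1, a DM-domain transcription factor of germ cells and Sertoli cells, was the targeted gene. A conditional deletion spares cells in which the driver is not active, and the labels name the cells of neither driver. Separate animals are not mentioned in the labels, and the p-values therefore describe the variation among these arrays, part or all of which may be technical.

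Dmrt1 stood at 45.0% of its control intensity in the mean of the NGN-cre arrays, while the DHH-cre array kept 54.2%. Pearson correlations of log2 intensity over all rows lay between 0.9745 and 0.9931, the DHH-cre array having the 4 lowest. Array numbers in the labels set the DHH-cre array apart from the others, so that array and the DHH-cre deletion cannot be told apart. Germ cell markers were bright on every array, with log2 intensity from 10.81 to 15.41 for 10 of 10 listed, as were Sertoli cell markers (9.52 to 15.09, 9 of 10 listed). Spermatid and flagellum markers were dim, at 4.95 to 9.32 for 8 of 8 listed. The median of 1063 olfactory receptor rows was 5.24, and every kinesin value lay well above it, between 9.06 and 14.94.

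Promoters of 6 members are shown because the classes differed in a sequence feature that the choice of members did not use. Kif15, Kif18a and Kif22 were the mitotic kinesins furthest above the control, Kif11 and Kif23 are mitotic kinesins that lay near it, and Kif21a is a transport kinesin that lay below it. Each sequence runs 5′ to 3′ on the strand of the gene, from 250 bases before to 50 after a RefSeq transcript start (GRCm38.p6). Capitals mark TTTGAA, the cell cycle homology region (CHR) known to bind the repressor complex of cell cycle genes, and CCAAT, the box bound by NF-Y, each on either strand.
Kif15: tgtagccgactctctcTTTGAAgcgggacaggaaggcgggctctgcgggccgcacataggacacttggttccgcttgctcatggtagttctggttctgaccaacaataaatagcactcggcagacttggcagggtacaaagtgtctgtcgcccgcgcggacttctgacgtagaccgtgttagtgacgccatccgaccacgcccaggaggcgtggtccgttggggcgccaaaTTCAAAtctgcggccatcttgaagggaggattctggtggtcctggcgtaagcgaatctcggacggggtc
Kif18a: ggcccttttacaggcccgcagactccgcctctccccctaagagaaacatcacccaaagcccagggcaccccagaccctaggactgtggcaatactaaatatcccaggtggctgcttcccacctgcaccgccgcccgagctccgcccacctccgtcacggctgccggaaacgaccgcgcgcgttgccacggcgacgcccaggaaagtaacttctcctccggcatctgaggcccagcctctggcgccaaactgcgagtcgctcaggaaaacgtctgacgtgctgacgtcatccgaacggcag
Kif22: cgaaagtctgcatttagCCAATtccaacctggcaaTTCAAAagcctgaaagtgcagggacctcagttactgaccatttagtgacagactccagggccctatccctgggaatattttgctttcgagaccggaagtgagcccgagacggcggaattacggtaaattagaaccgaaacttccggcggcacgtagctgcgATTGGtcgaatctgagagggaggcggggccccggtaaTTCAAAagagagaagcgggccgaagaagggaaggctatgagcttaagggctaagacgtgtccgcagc
Kif11: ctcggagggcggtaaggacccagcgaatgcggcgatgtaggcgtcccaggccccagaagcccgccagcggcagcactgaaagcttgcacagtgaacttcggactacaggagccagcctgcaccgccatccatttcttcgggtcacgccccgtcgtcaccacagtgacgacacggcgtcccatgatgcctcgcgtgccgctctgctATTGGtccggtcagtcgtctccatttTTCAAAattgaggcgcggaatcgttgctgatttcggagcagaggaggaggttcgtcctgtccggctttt
Kif23: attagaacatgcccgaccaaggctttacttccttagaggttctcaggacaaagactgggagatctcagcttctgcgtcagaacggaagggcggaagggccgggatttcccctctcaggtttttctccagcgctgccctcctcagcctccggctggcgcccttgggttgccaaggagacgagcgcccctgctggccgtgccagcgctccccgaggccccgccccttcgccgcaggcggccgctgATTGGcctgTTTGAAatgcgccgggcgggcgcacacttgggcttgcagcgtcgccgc
Kif21a: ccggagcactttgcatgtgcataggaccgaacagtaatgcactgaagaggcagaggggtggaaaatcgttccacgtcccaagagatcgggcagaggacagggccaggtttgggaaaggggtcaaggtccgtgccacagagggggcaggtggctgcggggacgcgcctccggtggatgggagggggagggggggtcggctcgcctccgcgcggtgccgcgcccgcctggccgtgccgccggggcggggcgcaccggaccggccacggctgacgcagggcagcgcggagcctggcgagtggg

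On GRCm38.p6 these windows lie at chr9:122950831-122951130 on the plus strand for Kif15, chr2:109280488-109280787 (plus) for Kif18a and chr7:127042371-127042670 (minus) for Kif22. The window of Kif11 lies at chr19:37376132-37376431 (plus), that of Kif23 at chr9:61946750-61947049 (minus) and that of Kif21a at chr15:91049902-91050201 (minus). RefSeq promoters were matched for 24 of the 28 genes, all but Kif5a, Kif5b, Kif20a and Kif21b. Only the first listed promoter of each kinesin gene was read, while the shares over all promoters count every promoter of 27025 genes. TTTGAA was found in 7 of 8 mitotic kinesin promoters, in 0 of 7 transport kinesin promoters, in 1 of 7 ciliary kinesin promoters and in 0 of 2 others, against 17.9% of all 32851 promoters of the same length. CCAAT was found in 5 of 8 mitotic, 1 of 7 transport, 5 of 7 ciliary and 0 of 2 other promoters, against 37.4% of all. The motifs share no bases in these windows. In Kif11 and Kif15 a TTTGAA match began 19 bases before the start, in Kif22 17 bases before it, and in Kif23 3 bases after it. Kif18a was the mitotic kinesin with neither motif in its window, although its values lay with those of Kif15 and Kif22. A match of letters is a description of the sequence and does not show that a factor binds there.

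A first comparison asked how the kinesin genes stood in testes with the NGN-cre deletion against the control. Kif15, Kif18a and Kif22 were 1.52- to 1.61-fold above the control and Kif6 1.48-fold below it, while the family as a whole was balanced, with 14 genes higher and 14 lower and a median log2 difference of -0.0045. No kinesin gene passed the test (limma, Benjamini-Hochberg adjusted over all rows, adjusted p under 0.05), and 0% of all 25631 rows did, so the comparison made no call for any gene. At an unadjusted p under 0.05 in limma there were 4 of 28 kinesins, 3 higher and 1 lower, against 7.86% of all rows (4.65% higher and 3.21% lower). The typical absolute difference was 0.18 for the kinesins and 0.20 over all rows. In RNA from a whole testis, fewer cells of a type and less RNA per cell cannot be told apart.

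Kif15, a spindle motor that can take over from Kif11 in separating the poles, had log2 intensity 12.63 in the control and 13.29, 13.09 and 13.59 in the NGN-cre knockouts. All 3 knockout arrays were above the control, by a log2 difference of 0.69 (SE 0.26; limma, Benjamini-Hochberg adjusted p = 0.59). Kif18a, which shortens microtubules to align chromosomes and is needed for germ cell divisions in the mouse, had 11.48 in the control and 12.06, 12.22 and 11.97 in the knockouts. Its log2 difference was 0.60 (SE 0.22; limma, Benjamini-Hochberg adjusted p = 0.579). Kif22, the chromokinesin that pushes chromosome arms from the poles, had 12.05 in the control and 12.64, 12.68 and 12.81 in the knockouts, a log2 difference of 0.66 (SE 0.22; limma, Benjamini-Hochberg adjusted p = 0.531). For each of these genes the lowest knockout array lay at least 0.46 above the control, but with 1 control array none of the differences passed over all rows.

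The other 6 mitotic kinesins had differences between -0.39 for Kif2c and 0.17 for Kif4. Kif11, the motor that separates spindle poles, had 12.91 in the control against 12.80, 12.71 and 13.11 in the NGN-cre knockouts, so the control fell within the knockout range. Kif20a, which brings the chromosomal passenger complex to the midzone for cytokinesis, had 14.56 in the control against 14.42, 14.42 and 14.51. Kif23, the motor of centralspindlin at the midzone, had 14.74 against 14.84, 14.94 and 14.81. All knockout arrays were thus slightly below the control for Kif20a and slightly above it for Kif23. Kif4, a chromokinesin that also shapes the midzone, had 13.75 in the control against 13.97, 13.83 and 13.94, a difference of 0.17. Kif18b, a paralogue of Kif18a that acts on astral microtubules, had 12.52 in the control against 12.52, 12.48 and 12.26, with no separation of the groups. Kif2c, a depolymerase that corrects wrong kinetochore attachments, went the other way, with 13.65 in the control against 13.43, 13.16 and 13.19, a log2 difference of -0.39 (SE 0.23; limma, Benjamini-Hochberg adjusted p = 0.758).

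Counted by position alone, 5 of 9 mitotic kinesins had 3 of 3 NGN-cre arrays above the control and 2 had 3 of 3 below, against 25.7% and 28.8% of all rows. In the whole family 15 of 28 genes had the control outside the NGN-cre range, 6 with all arrays above it and 9 with all below, against 54.5% of all rows. Among transport kinesins 0 of 10 had all arrays above and 5 had all below, and among ciliary kinesins 1 of 7 had all above and 2 all below. Median log2 differences were 0.13 for mitotic, -0.30 for transport and 0.08 for ciliary kinesins, with -0.02 over all rows. On the 3 NGN-cre arrays taken alone the median of the mitotic kinesins was 0.10, 0.08 and 0.19, that of the transport kinesins was -0.11, -0.33 and -0.26, and that of the ciliary kinesins was 0.09, -0.001 and -0.02. All 3 arrays were read against the same control array, and they shared the sign for the mitotic and transport classes but not for the ciliary class, whose median was 0.0503 without NGN-cre replicate 3.

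**Figure D1:**
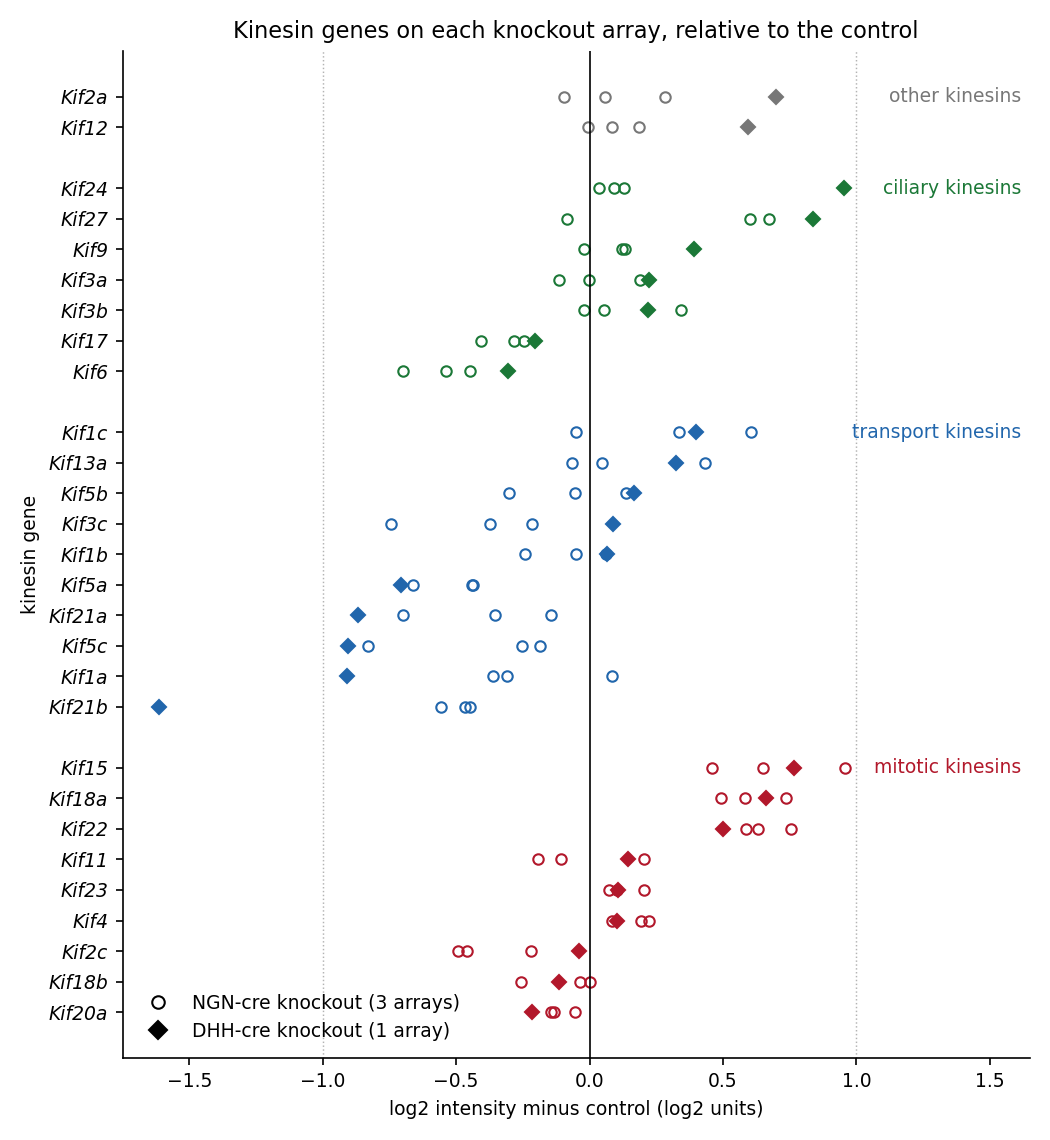
Log2 intensity minus the control (x axis, log2 units) for the 28 kinesin genes (y axis), with open circles for the 3 NGN-cre knockout arrays and filled diamonds for the DHH-cre knockout array, coloured by class. Kif15, Kif18a and Kif22 lie to the right of 0 on all 4 knockout arrays, Kif21b lies furthest left, and dotted lines mark 2-fold differences.

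Among transport kinesins, Kif5a, Kif5c, Kif21a, Kif21b and Kif3c lay below the control on all NGN-cre arrays, and the other 5 overlapped it. Kif5a, a neuronal heavy chain of conventional kinesin, had log2 intensity 12.34 in the control and 11.90, 11.68 and 11.90 in the knockouts, below the control in 3 of 3 arrays by 0.51 (SE 0.22; limma, Benjamini-Hochberg adjusted p = 0.655). Its other, dimmer row had 11.21 against 10.68, 10.93 and 10.74, also below the control in 3 of 3 arrays. Among the knockouts, NGN-cre replicate 2 was the lowest in the brighter row but the highest in the dimmer one. Kif5c, the other neuronal heavy chain, had 11.53 in the control and 11.28, 11.35 and 10.70 in the knockouts. Kif5b, the heavy chain found in most cells, had 14.13 against 14.07, 13.82 and 14.26, with the control inside the knockout range. Kif21a and Kif21b, kinesins that restrain microtubule growth, were both below the control in 3 of 3 arrays, Kif21a at 13.65 against 13.50, 13.29 and 12.95 and Kif21b at 11.87 against 11.32, 11.42 and 11.41. Kif3c, a neuronal partner of the Kif3 motors, had 10.21 against 9.84, 9.47 and 10.00.

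Kif1a, the motor of synaptic vesicle precursors, had 9.97 in the control and 10.06, 9.61 and 9.66 in the NGN-cre knockouts, so the groups overlapped. Kif1b, which carries mitochondria and vesicle precursors through different splice forms, had a row at 12.77 against 12.72, 12.53 and 12.83 and a dimmer row at 11.49 against 11.55, 11.69 and 11.78. These rows differed from the control in opposite directions, by -0.08 and 0.18, neither by more than its SE. Kif1c and Kif13a, motors of vesicles and recycling endosomes, had differences of 0.30 and 0.14 with the control inside the knockout range. No transport kinesin had an unadjusted p under 0.05 in this comparison.

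The ciliary kinesins had no common direction in the NGN-cre knockouts. Kif3a and Kif3b, the motor subunits of kinesin-II that power intraflagellar transport, had differences of 0.02 and 0.13, and in both the control lay within the knockout range. Kif6, known from ependymal cilia of the mouse, had 10.08 in the control against 9.64, 9.38 and 9.54, a difference of -0.56 (SE 0.22; limma, Benjamini-Hochberg adjusted p = 0.609). Kif17, a homodimeric partner of kinesin-II that also shuttles a transcriptional coactivator in male germ cells, had 10.54 against 10.13, 10.29 and 10.25. Kif27, a relative of the Hedgehog regulator Kif7, had 11.22 in the control and 11.83, 11.90 and 11.14 in the knockouts, so replicate 3 lay below the control and the others above it. Kif9, a motor of the axoneme, and Kif24, a depolymerase that keeps cilia from forming in cycling cells, had differences of 0.08 and 0.09. The 2 remaining members, Kif2a, a depolymerase of neurons and spindle poles, and Kif12, known from kidney epithelium, also had differences of 0.08 and 0.09.

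**Figure D2:**
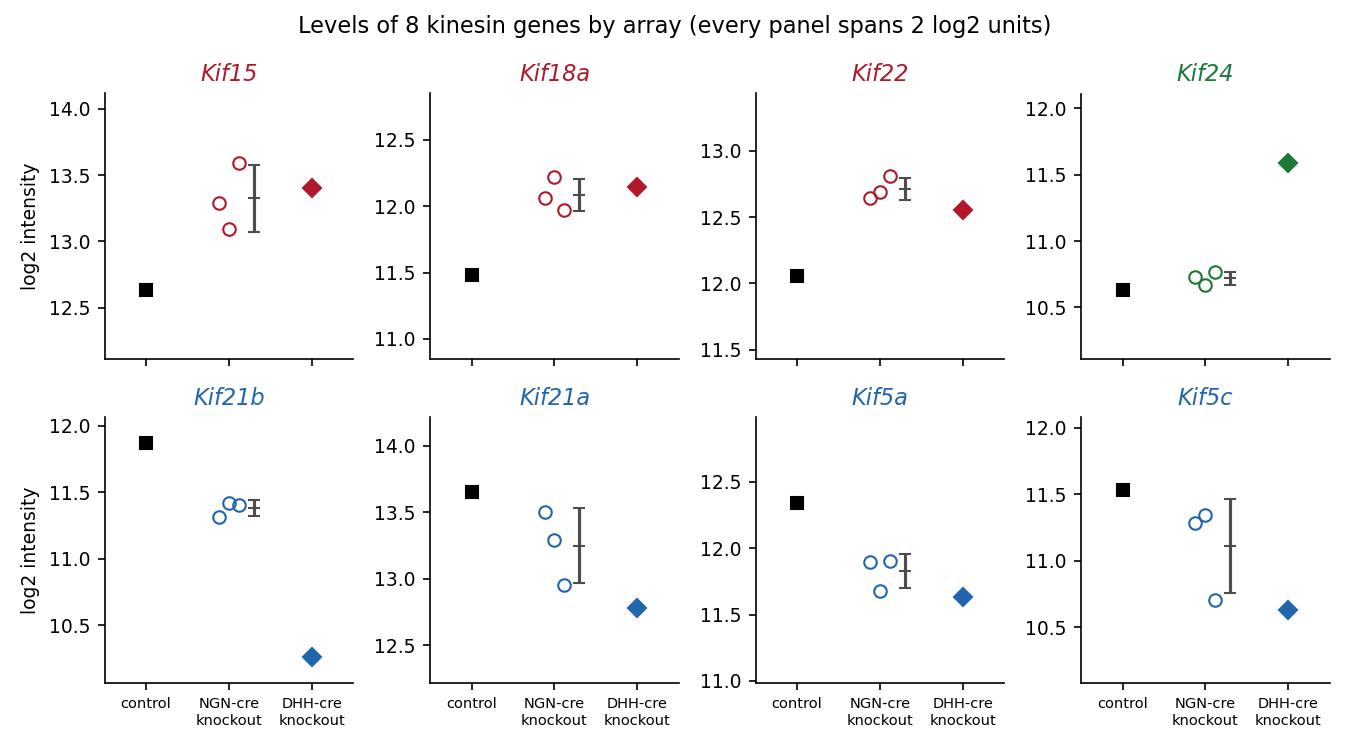
Log2 intensity (y axis, 2 log2 units in each panel, with different starting points) of 8 kinesin genes in the control (square), the 3 NGN-cre knockouts (circles, with their mean and SD beside them) and the DHH-cre knockout (diamond). Kif15, Kif18a and Kif22 lie above the control on all knockout arrays, Kif24 is high on the DHH-cre array alone, and the 4 transport kinesins below are lowest on the DHH-cre array.

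The DHH-cre knockout was then read against the control, array against array, without replicates and so without a test. Kif21b was 3.06-fold lower in the DHH-cre knockout, at 10.26 against 11.87, a log2 difference of -1.61. It was the only kinesin counted by size, a rule that asks for a difference of at least 2-fold that is also wider than the row's own spread, from lowest to highest, among the NGN-cre replicates. By this rule 1 of 28 kinesins was counted, 0 higher and 1 lower, against 10.4% of all rows (5.55% higher and 4.81% lower). The typical absolute difference was 0.36 for kinesins and 0.35 over all rows.

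At 1.5-fold instead of 2-fold, 11 kinesins were counted, against 25.2% of all rows. Of these 6 were higher and 5 lower, against 12.5% and 12.8% of all rows. The 5 lower ones were all transport kinesins, and the 6 higher ones included none of that class. Their log2 intensity on the DHH-cre array was 9.06 for Kif1a, 11.63 for Kif5a, 10.63 for Kif5c, 12.78 for Kif21a and 10.26 for Kif21b, each the lowest of all 5 arrays. Besides Kif21b, the lower ones had log2 differences from the control of -0.91 for Kif1a, -0.91 for Kif5c, -0.87 for Kif21a and -0.71 for Kif5a. The higher ones were Kif24 at 0.95, Kif27 at 0.84, Kif15 at 0.77, Kif2a at 0.70, Kif18a at 0.66 and Kif12 at 0.59. Just short of the 2-fold limit, Kif24 had log2 intensity 11.59 on the DHH-cre array against 10.63 in the control.

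Kif15, Kif18a and Kif22 were above the control on the DHH-cre array too. Kif15 stood at 13.40, Kif18a at 12.14 and Kif22 at 12.55 on this array. Kif11 stood at 13.05, Kif20a at 14.34, Kif23 at 14.84, Kif4 at 13.85, Kif18b at 12.40 and Kif2c at 13.61. These 6 mitotic members differed from the control by between -0.215 for Kif20a and 0.15 for Kif11. These values and those of the NGN-cre knockouts are measured from the same control array, so a control value that was low by error would raise both. Class medians on the DHH-cre array were 0.11 for mitotic, -0.32 for transport and 0.22 for ciliary kinesins, with -0.02 over all rows.

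A last comparison, free of the control, was between the DHH-cre array and the 3 NGN-cre arrays. Kif21b was again the furthest apart, 2.18-fold lower on the DHH-cre array than the NGN-cre mean, followed by Kif24, which was 1.82-fold higher. None of the 28 kinesins passed (limma, Benjamini-Hochberg adjusted over all rows), against 1.00% of all rows. At an unadjusted p under 0.05 in limma there were 4 kinesins, Kif24 and Kif2a higher and Kif21b and Kif1a lower, against 18.3% of all rows (8.77% higher and 9.55% lower). The DHH-cre value lay outside the NGN-cre range for 19 of 28 kinesins, against 65.6% of all rows. It was the highest of all 5 arrays for 9 kinesins and the lowest for 6, against 29.0% and 29.1% of all rows. For Kif21b the DHH-cre value of 10.26 lay far below the NGN-cre range of 11.32 to 11.42, a log2 difference of -1.12 (SE 0.21; limma, Benjamini-Hochberg adjusted p = 0.0668). Kif21b passed when limma's prior variance was allowed to follow intensity (adjusted p = 0.0274) and when NGN-cre replicate 3 was left out (adjusted p = 0.0403). Leaving out NGN-cre replicate 1 instead gave an adjusted p of 0.173 in limma. Both settings in which Kif21b passed also called more of all 25631 rows, 729 with the trend and 1321 without replicate 3, against 257 in the main fit. The spread of the NGN-cre arrays stands in for that of the lone DHH-cre array.

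For Kif24 the DHH-cre value of 11.59 lay above the NGN-cre values of 10.73, 10.67 and 10.76, by 0.87 (SE 0.21; limma, Benjamini-Hochberg adjusted p = 0.107). Kif1a had 9.06 on the DHH-cre array, below all NGN-cre arrays, a difference of -0.71 (SE 0.26; limma, Benjamini-Hochberg adjusted p = 0.212). Kif2a had 13.74 on the DHH-cre array against 13.33, 13.10 and 12.95, a difference of 0.62 (SE 0.24; limma, Benjamini-Hochberg adjusted p = 0.24). Kif3c differed by 0.53, with 10.30 on the DHH-cre array, close to the control. The ciliary kinesins were higher on the DHH-cre array in 7 of 7 genes, with differences from 0.09 for Kif3b to 0.87 for Kif24 and a median of 0.26. In 6 of those 7 the DHH-cre value lay above all NGN-cre arrays, against 33.2% of all rows.

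For mitotic kinesins, differences between the DHH-cre array and the NGN-cre mean ran from -0.16 for Kif22 to 0.35 for Kif2c, with a median of -0.02 and 0 of 9 at an unadjusted p under 0.05. For Kif15, Kif18a, Kif11, Kif18b, Kif23 and Kif4 the DHH-cre value lay within the NGN-cre range. Transport kinesins were split, with 5 genes below all NGN-cre arrays (Kif1a, Kif5a, Kif5c, Kif21a and Kif21b), against 32.5% of all rows, and 3 above all of them (Kif1b, Kif3c and Kif5b). The class median was -0.04.

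**Figure D3:**
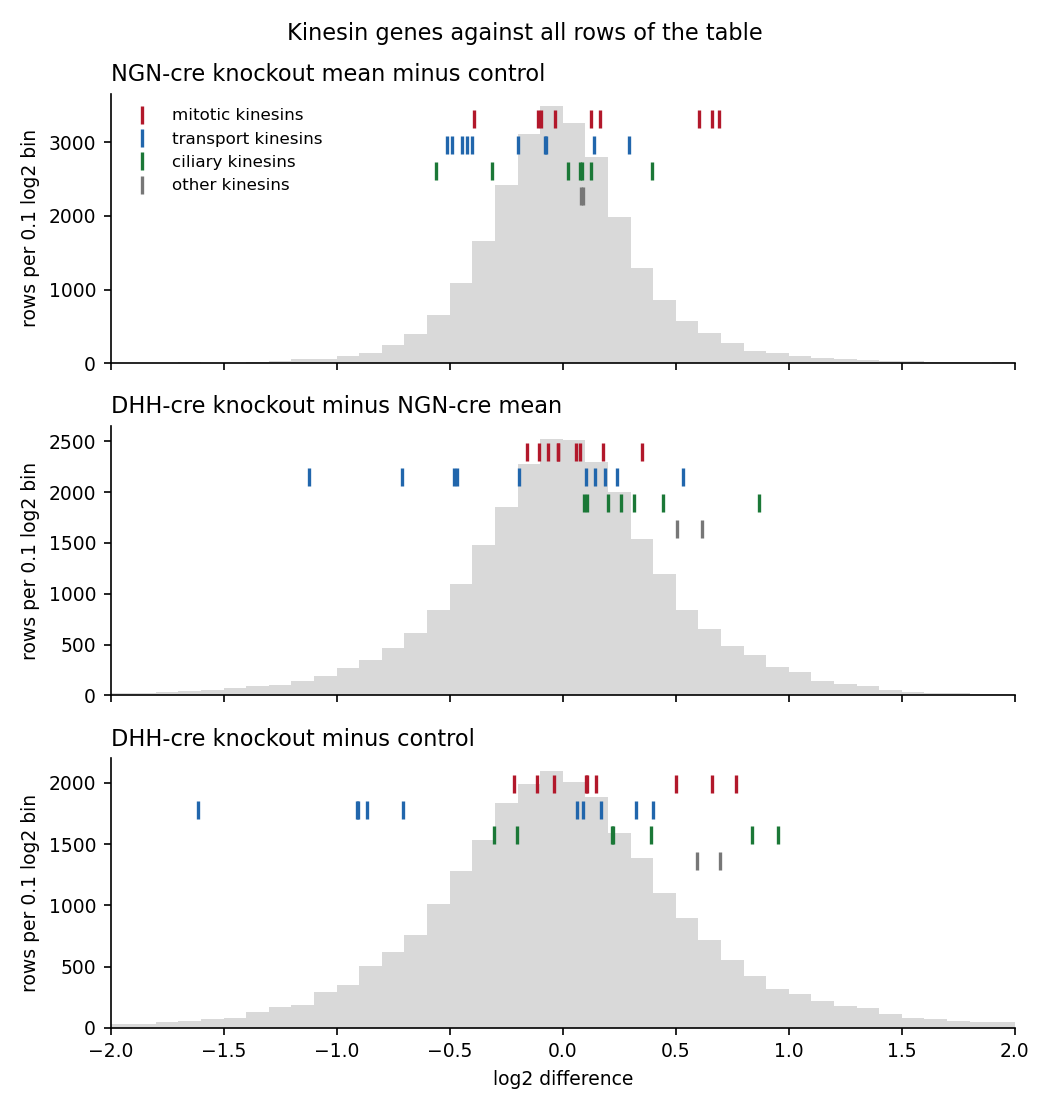
Distribution of log2 differences over all rows (grey bars, rows per bin of 0.1 log2 units) for the 3 comparisons, with a tick for each kinesin gene, coloured by class and placed by its log2 difference on the x axis, which is cut at 2 units either way. Most ticks lie within the bulk of the rows, with transport kinesins reaching -1.61 in the lowest panel and Kif15, Kif18a and Kif22 apart from the other mitotic kinesins in the top panel.

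Close paralogues did not always go together. In the Kif5 group the DHH-cre array differed from the control by -0.71 for Kif5a and -0.91 for Kif5c but by 0.17 for Kif5b. In the Kif18 group Kif18a stood at 0.66 and Kif18b at -0.12. In the Kif1 group Kif1a stood at -0.91, Kif1b at 0.07 and Kif1c at 0.40. Kif21a and Kif21b shared the direction, at -0.87 and -1.61. The positions of the probes were not used here, so whether they tell paralogues apart was not tested.

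Partners of the mitotic kinesins were read beside them. Of 14 listed genes 13 were measured, with 7 higher and 6 lower in the NGN-cre knockouts and a median of 0.03, and 5 higher and 8 lower on the DHH-cre array with a median of -0.13. Against 10.4% of all rows, 0 of the 13 were counted by size, and none passed in either tested comparison. By position alone, the DHH-cre value lay below all NGN-cre arrays for 9 of the 13 and above all for 2. The shares of all rows were 32.5% and 33.2%. Their largest differences on the DHH-cre array were 0.75 for Ect2, an exchange factor needed for cytokinesis, and -0.61 for Racgap1, which binds Kif23 in centralspindlin. Of 12 listed kinesin genes with another kind of symbol, such as light chains and Cenpe, 9 were measured, with medians of -0.01 in the NGN-cre knockouts and -0.06 on the DHH-cre array.

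Proliferation markers gave no common direction, with 5 of 9 measured of 10 listed higher and 4 lower in both deletions. Cdk1, among the higher ones, was near the olfactory receptor median of 5.24 on all arrays, with log2 intensity from 4.62 to 5.30. Their medians were 0.14 in the NGN-cre knockouts and 0.11 on the DHH-cre array. Bub1, a spindle checkpoint kinase, stood at 0.53 and 1.02, the latter counted by size. It was 1 of the 9 so counted, against 10.4% of all rows. Top2a, which untangles DNA, at 0.63 and 0.95, and Ube2c, which feeds the anaphase-promoting complex, at -0.19 and -0.81, were the others furthest from the control on the DHH-cre array and were chosen after their values were seen. None of the 9 passed in either tested comparison. The part of dividing cells in the values of Kif15, Kif18a and Kif22 was not tested.

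Motor adaptors were counted beside the transport kinesins. Of 12 measured adaptors and light chains 6 were higher and 6 lower in the NGN-cre knockouts, with a median of 0.07, and 7 were higher and 5 lower on the DHH-cre array, with a median of 0.05. None passed, and 0 were counted by size, against 10.4% of all rows. Madd, an adaptor of Kif1a and Kif1b, stood at 0.50 and 0.90, opposite to Kif1a, and Mapk8ip2, a scaffold that binds kinesin light chains, at -0.10 and -0.98.

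Neuron markers were read beside the neuronal kinesins. Of 8 measured of 8 listed, 4 were higher and 4 lower in the NGN-cre knockouts (median 0.04), while 7 were lower and 1 higher on the DHH-cre array against the control (median -0.45). Their summed intensity was 18215 in the control, 14406 to 21341 over the NGN-cre arrays and 10402 on the DHH-cre array. Tubb3 and Nefm dominate this sum, at log2 intensity 13.52 and 12.045 in the control and 12.82 and 10.11 on the DHH-cre array. Rbfox3, the next brightest in the control, stood at 10.18. Nefm, a neurofilament subunit, fell on the DHH-cre array against the NGN-cre mean (log2 difference -1.64; limma, Benjamini-Hochberg adjusted p = 0.0483). Snap25, a synaptic membrane protein, was near the olfactory receptor level on all arrays, at 4.88 to 5.26. The part of these cells in the low values of Kif1a, Kif5a, Kif5c, Kif21a and Kif21b was not tested.

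Intraflagellar transport genes were read beside the ciliary kinesins, of which 5 of 7 were higher than the control on the DHH-cre array. Of 15 intraflagellar transport genes measured, 11 were higher and 4 lower than the control there (median 0.36), against 9 higher and 6 lower in the NGN-cre knockouts (median 0.06). Ift80, a subunit of the complex that carries cargo outwards, stood at 1.18 and Ift27, a small GTPase of the same complex, at -1.21, and these 2 of 15 were counted by size, against the 10.4% of all rows given above. Kifap3, the subunit that links kinesin-II to its cargo, stood at 0.14 in the NGN-cre knockouts and 0.51 on the DHH-cre array. Markers of multiciliated epithelium, 6 of 8 measured, had a summed intensity of 6399 in the control, 6583 to 7421 over the NGN-cre arrays and 12537 on the DHH-cre array, with a median log2 difference of 0.32 on the latter. Without Rsph1 the sums of the other 5 were 4931, 4637 to 5579 and 6011. Rsph1, a radial spoke protein also made in germ cells, had log2 intensity 12.67 on that array and 10.52 in the control. Rsph1 and Mcidas were counted by size, 2 of the 6 measured, against 10.4% of all rows. Mcidas, a regulator of multiciliated cells, stood at 1.21 but was dim. Its log2 intensity was 5.67 in the control, near the olfactory receptor median of 5.24, and 6.88 on the DHH-cre array. Foxj1, the transcription factor that defines those cells, differed by 0.27 on the DHH-cre array. Their part in the ciliary kinesin values was not tested.

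Germ cell markers were higher in 8 of 10 in the NGN-cre knockouts (median 0.29) and in 7 of 10 on the DHH-cre array (median 0.46), their summed intensity being 178950 in the control, 199980 to 224810 over the NGN-cre arrays and 230840 on the DHH-cre array. On the DHH-cre array 6 of the 10 were counted by size, 4 higher and 2 lower, against 10.4% of all rows. The higher ones were Tex101 at 1.66, Rnf17 at 1.36, Sycp3, of the synaptonemal complex, at 1.17 and Stra8, the meiosis gatekeeper, at 1.01. Gfra1 and Zbtb16, of undifferentiated spermatogonia, were the lower ones, at -1.43 and -1.03. Sertoli cell markers were lower in 9 of 9 in NGN-cre knockouts (median -0.26) and in 7 of 9 on the DHH-cre array (median -0.38). Their summed intensity was 112880 in the control, 80243 to 110360 over the NGN-cre arrays and 79864 on the DHH-cre array. Cldn11 and Gata1, the brightest in the control, weigh most in this sum. They had log2 intensity 15.085 and 14.616 in the control and 14.212 and 13.88 on the DHH-cre array. Gata4 and Wt1, the next brightest, differed from the control by -0.15 and 0.12 on that array. Fshr, the FSH receptor, fell on the DHH-cre array against the NGN-cre mean (log2 difference -1.55; limma, Benjamini-Hochberg adjusted p = 0.0369), and against the control Fshr at -2.27 and Sox8 at -1.08 were counted by size. Fshr and Sox8 were 2 of the 9 Sertoli cell markers measured, against 10.4% of all rows counted by size. The part of cell composition in the kinesin values was not tested.

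**Figure D4:**
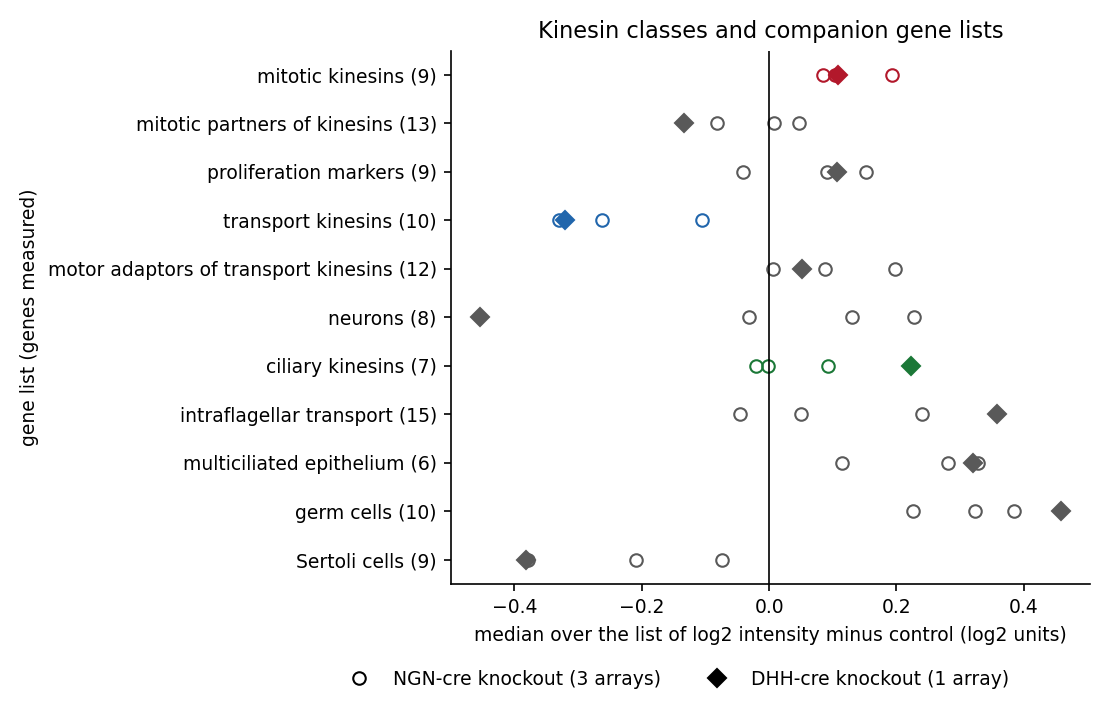
Median log2 difference from the control over each gene list (x axis, log2 units; genes measured in brackets on the y axis), with open circles for the 3 NGN-cre knockout arrays and diamonds for the DHH-cre knockout array. The median of transport kinesins lies below 0 on all 4 knockout arrays, that of mitotic kinesins above 0, and that of neuron markers is low on the DHH-cre array, at -0.45.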

How the data were processed

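Gene expression in whole testes was measured on 5 single-colour NimbleGen arrays labelled with Cy3, per the labels' protocols. The deposited table holds intensity on a linear scale, with a value for each transcript and array. RMA appears in the submitters' processing notes without a version. As a method RMA corrects background, equalises arrays and summarises probes. Array medians lay between 721 and 730, so a shift of total RNA cannot be seen. Log2 intensity was taken from the deposited values with no pseudocount, filter or further normalization. Rows were named through a RefSeq table of GRCm38.p6, used for names and promoters only, and 17780 of 25631 rows had 1 symbol. The test was limma 3.58.1 (R 4.3.3; lmFit, eBayes, two-sided) with a mean for each group, Benjamini-Hochberg adjusted over all rows. Only the NGN-cre arrays are replicated, which leaves 2 residual degrees of freedom and limits the precision. An exact permutation test with 3 arrays on one side and 1 on the other has 0.25 as its smallest p. The fit was tested on simulated data. Given by array were the mitotic members, those called or counted by size, and the 5 with the largest difference in each comparison, and other values by their place in the class. Of the other lists, genes called or counted by size were named, or else the furthest apart. The alternatives were other variance models, normalization, an offset, a filter on dim rows, other rows for a gene, other size rules and leaving out arrays. Members, lists and settings were chosen with earlier results of these data known.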

Additional observations from a re-analysis of the deposited data

How the results depend on the processing

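With 0 to 1 kinesin genes called, the counts held under most alternatives. Against the NGN-cre knockout, the DHH-cre array had 1 call, Kif21b, with an intensity trend and without NGN-cre replicate 3 (0 to 1 over the 3 leave-one-out fits), and the cause was not tested. At 1.5-fold in place of 2-fold, 11 kinesins were counted by size on the DHH-cre array against the control, by construction of the looser rule. Leaving out each NGN-cre array in turn, the class medians between the knockouts ran from -0.0465 to 0.0307 for mitotic, -0.1128 to -0.0153 for transport and 0.1891 to 0.3155 for ciliary kinesins, the last standing at 0.2427 with an offset of 50. Kif23 changed sign between the knockouts when quantile normalization was repeated, at 0.0218, and Kif1b against the control with the mean of its rows, at 0.0529. Of all 28 kinesins, leaving out 1 array turned the sign against the control for Kif11 (-0.1511 to 0.0476), Kif13a (-0.0089 to 0.2407), Kif1b (-0.1467 to 0.0054), Kif2a (-0.0193 to 0.1702), Kif3a (-0.0585 to 0.0938) and Kif5b (-0.1792 to 0.0398). Between the knockouts it did so for Kif15 (-0.0391 to 0.2105), Kif18b (-0.0983 to 0.0307), Kif1c (-0.0698 to 0.2583) and Kif23 (-0.0465 to 0.0195). The cause of these changes of sign was not tested. Over all rows, calls between the knockouts numbered 257 and became 729 with the trend, 97 with the offset, and 38 to 1321 leaving out an array, while those against the control were 0 and became 66 with the trend and 238 without NGN-cre replicate 3. No paired analysis was possible with 1 control and 1 DHH-cre array, and the labels give no replicate numbers. With 1 control and 1 DHH-cre array, no difference from either has a replicate check on that side.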

Other observations

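Lists of other cells that a dissected testis can hold were read as well. Leydig cell markers, 7 of 7 measured, had medians of -0.01 in the NGN-cre knockouts and 0.18 on the DHH-cre array against the control. Against the NGN-cre mean, 6 of the 7 were higher on the DHH-cre array, with a median of 0.37, and Hsd17b3 was the only lower one. Hsd17b3, which makes testosterone, fell on the DHH-cre array against the NGN-cre mean (log2 difference -3.27; limma, Benjamini-Hochberg adjusted p = 0.0209). Epididymis and duct markers, 8 of 8 measured, had medians of 0.44 and -0.35, and Crisp1, a secreted epididymal protein, fell between the knockouts (log2 difference -5.98; limma, Benjamini-Hochberg adjusted p = 0.00104). Erythroid markers, 5 of 6 measured, had medians of 0.0038 and -1.31, and Slc4a1, the red cell anion exchanger, fell between the knockouts (log2 difference -1.60; limma, Benjamini-Hochberg adjusted p = 0.0442). On the DHH-cre array 3 of the 5 erythroid markers were counted by size below the control, against 10.4% of all rows in either direction. Hba-a1 was among them, at -1.34. Crisp1 had log2 intensity 8.28 in the control, 10.09 to 10.33 on the NGN-cre arrays and 4.25 on the DHH-cre array. The last of these values lies below the olfactory receptor median of 5.24. Of the 8 spermatid and flagellum markers 7 were lower and 1 higher than the control in both deletions. The higher one was Spaca1, at 1.09 in the NGN-cre knockouts and 1.27 on the DHH-cre array. On the latter Spaca1 was 1 of the 8 counted by size, against 10.4% of all rows. Among the lower ones, Prm1, Prm2 and Tnp1 hardly differed from the control on the DHH-cre array, at -0.0086, -0.0476 and -0.0151. The part of these cells in the kinesin values was not tested.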
